A study of Mus musculus with 20 samples.

Results

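The machinery of RNA polymerase I (Pol I) and RNA polymerase III (Pol III) was followed in single mouse 8-cell (8C) embryos with and without maternal G9a. The genes were chosen by symbol from a list of 36: the Pol I and Pol III subunits, the factors that bring these enzymes to their templates, and the Pol III repressor Maf1. All 36 were found by symbol among the 34937 Ensembl genes of the deposited count tables, and all 36 were kept by the filter on low counts, which left 11754 genes for testing.

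Pol I transcribes the repeated ribosomal RNA genes in the nucleolus, where UBF (Ubtf) and the selectivity factor SL1 mark the promoter and RRN3 joins the polymerase to it. Pol III transcribes the 5S ribosomal RNA, the tRNAs and other short RNAs, with TFIIIA and TFIIIC recognising the gene, TFIIIB placing the enzyme and MAF1 holding it back. Mouse embryos inherit ribosomes from the oocyte and build active nucleoli of their own during the cleavage stages.

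The data come from 19 embryos at E2.5, all of mixed background and morphologically normal, each sequenced on its own after amplification of its cDNA with a bias towards the 3′ end. In Ehmt2Cntr (9 embryos) the mothers were Ehmt2F/+ with Zp3-Cre, and in Ehmt2Mat (10 embryos) they were Ehmt2F/- with Zp3-Cre, a transgene that recombines the conditional allele of Ehmt2 (the gene of the H3K9 dimethyltransferase G9a) in the growing oocyte. The zygotic genotype was +/+ in 6 and +/- in 3 controls, whereas in Ehmt2Mat it was +/- in 5 embryos (Ehmt2M/+) and -/- in the other 5 (Ehmt2M/Z). The maternal and the zygotic genotype thus change partly together, control number 4 was not analysed here, and the litter of each embryo is not given in the sources used here.

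Total counts were 12985149 to 30053248 in controls and 8231646 to 30602434 in Ehmt2Mat, so that 3 counts correspond to between 0.0911 and 0.363 CPM (counts scaled per library size). Ehmt2 itself measured 66.6, 133 and 253 CPM (lowest, median, highest) in controls and 58.7, 94.9 and 159 CPM in Ehmt2Mat, with a log2 fold change of -0.47 (SE 0.24, adjusted p = 0.233). The counts sum over every exon of the gene, so they do not isolate the deleted part and are no check of the deletion. Summed markers of 8C embryos were between 2642 and 4310 CPM in controls and between 3307 and 4341 CPM in Ehmt2Mat, a sum to which Dppa3 alone gave means of 1924 and 2408 CPM. Of the 7 such markers tested, Tead4 and Tfap2c were significantly higher in Ehmt2Mat (28.6%, beside 4.37% of all genes tested). Klf5 and Sall4 were lower (0.355 and 0.476 times control, 28.6% beside 4.98%). Every Ehmt2Mat embryo lay below every control in Klf5 and Sall4. Among all 11754 genes tested, 61 had groups that did not overlap, in either direction. The part of these markers in the differences given here was not tested. Of 8 cumulus cell markers, Ptx3, Has2, Amh, Foxl2 and Fshr had no count in any embryo, and the list summed to at most 5.02 CPM. Blood cell markers summed to at most 8.37 and 9.33 CPM in controls and Ehmt2Mat. Oocyte markers summed to between 43.7 and 298 CPM in controls and between 106 and 341 CPM in Ehmt2Mat. Of the 6 oocyte markers, 1 (Oosp1) was significantly higher (16.7%, beside 4.37% of all genes tested). The part of remaining oocyte transcripts in the differences given here was not tested. In whole embryos, a difference in RNA per cell and a difference in the cells that hold it cannot be told apart.

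In Ehmt2Mat embryos, 10 of the 36 genes were significantly upregulated and 2 were downregulated (edgeR quasi-likelihood test, adjusted p under 0.05). Of all genes tested, 9.35% were called, 4.37% as higher and 4.98% as lower, against 27.8% and 5.56% of the list. The upregulated genes were Polr1e, the shared subunits Polr1c and Polr1d, the Pol I initiation factors Taf1b, Taf1d and Rrn3, the nucleolar cofactor Tcof1, the Pol III subunit Polr3c, and Gtf3c1 and Gtf3c2 of TFIIIC. Their levels were 1.57 to 1.87 times those of controls. The downregulated genes were Gtf3a, which encodes TFIIIA, and Maf1, at 0.532 and 0.514 times control. The other 24 genes did not pass the threshold.

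The log2 fold change was positive for 27 genes and negative for 9, with a median of 0.41 beside -0.04 over all genes tested. The listed genes also lie higher than most (median log2 CPM 6.54, beside 4.36) and vary less between embryos of a group (median biological coefficient of variation 0.371, beside 0.628), and the part of level and spread in the count was not tested. The slope of log2 CPM on log2 exon length had a median of -0.027 in Ehmt2Mat and -0.0025 in controls. Its mean was lower in Ehmt2Mat (exact two-sided permutation test on the difference of means, p = 0.0242). With each embryo's slope removed, 13 of the 36 genes were called, beside 9.62% of all genes tested. With the number of functional zygotic copies as a covariate, 0 of the 36 genes and 3 genes in all were called, and the median of the list was 0.37.

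**Figure D1:**
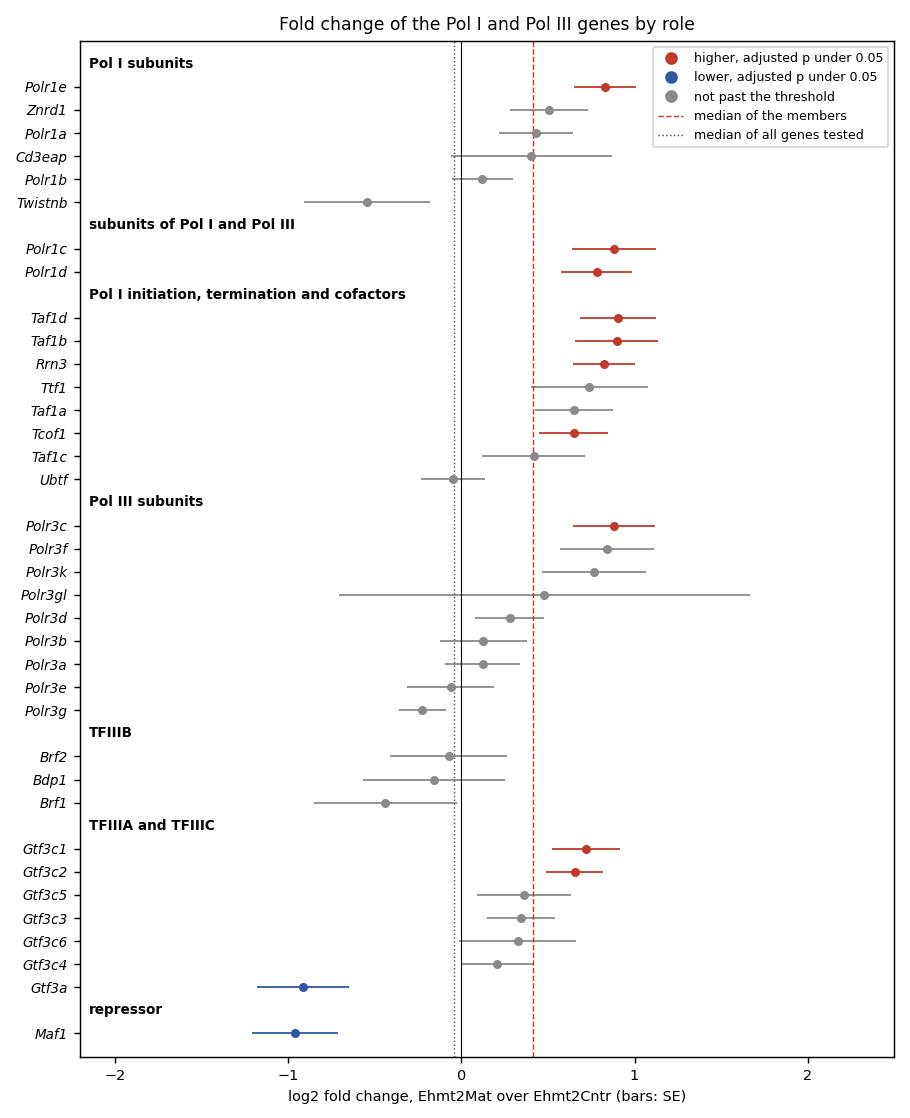
Log2 fold change (horizontal axis, Ehmt2Mat over Ehmt2Cntr, bars ± SE) of the 36 genes, grouped by role. Red points passed the threshold as higher (10 genes), blue points as lower (Gtf3a and Maf1) and grey points did not pass. The dashed line is the median of the list (0.41) and the dotted line that of all genes tested (-0.04).

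Promoter sequences were read for the listed genes, to see which short motifs the regulated ones hold. RefSeq promoters of GRCm38.p6, covering 250 bases before and 50 bases from each start site, matched 30 of the 36 genes. Tcof1, Polr3a, Polr3d, Brf1, Brf2 and Maf1 were not matched. The ETS core CCGGAAG, the binding motif of ETS-family factors such as GABP, was searched on both strands and lay in 15 of the 30 promoters (50%), in 20.3% of the 8816 promoters of tested genes and in 8.86% of all 32851 promoters. It lay in 6 of the 9 matched promoters of upregulated genes, in that of the downregulated Gtf3a, and in those of Cd3eap, Taf1a, Taf1c, Ttf1, Polr3b, Polr3g, Bdp1 and Gtf3c6, which did not pass the threshold. Below are those of the regulated genes in which the core lies within 50 bases of the start site, with CCGGAAG or its reverse complement in capitals and, for Rrn3, also the E-box CACGTG.
Rrn3 (chr16:13780449-13780748, + strand): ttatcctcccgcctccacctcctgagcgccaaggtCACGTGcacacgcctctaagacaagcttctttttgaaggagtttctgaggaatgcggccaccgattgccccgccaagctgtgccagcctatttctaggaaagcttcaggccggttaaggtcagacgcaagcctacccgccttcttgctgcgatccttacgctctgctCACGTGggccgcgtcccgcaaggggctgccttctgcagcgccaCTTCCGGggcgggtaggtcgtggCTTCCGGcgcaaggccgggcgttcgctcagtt
Polr1c (chr17:46247996-46248295, - strand): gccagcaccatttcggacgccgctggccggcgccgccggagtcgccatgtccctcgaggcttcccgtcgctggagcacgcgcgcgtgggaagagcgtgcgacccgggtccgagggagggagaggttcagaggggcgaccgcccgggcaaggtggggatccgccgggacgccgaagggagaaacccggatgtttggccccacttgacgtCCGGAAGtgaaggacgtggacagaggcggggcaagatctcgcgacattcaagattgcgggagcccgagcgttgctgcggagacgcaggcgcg
Polr1e (chr4:45018359-45018658, + strand): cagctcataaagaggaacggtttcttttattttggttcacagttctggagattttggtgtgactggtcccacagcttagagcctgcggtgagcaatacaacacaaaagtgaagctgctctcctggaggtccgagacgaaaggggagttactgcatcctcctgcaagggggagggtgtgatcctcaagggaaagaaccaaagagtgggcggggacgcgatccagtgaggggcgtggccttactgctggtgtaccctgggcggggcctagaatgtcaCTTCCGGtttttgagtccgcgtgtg
Taf1b (chr12:24498331-24498630, + strand): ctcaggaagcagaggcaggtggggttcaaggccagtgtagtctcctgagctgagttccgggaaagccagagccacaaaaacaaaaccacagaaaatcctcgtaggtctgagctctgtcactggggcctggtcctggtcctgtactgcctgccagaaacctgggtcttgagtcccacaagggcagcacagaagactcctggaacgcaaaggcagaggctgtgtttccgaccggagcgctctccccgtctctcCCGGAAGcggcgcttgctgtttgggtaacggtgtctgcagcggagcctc
Gtf3c2 (chr5:31180095-31180394, - strand): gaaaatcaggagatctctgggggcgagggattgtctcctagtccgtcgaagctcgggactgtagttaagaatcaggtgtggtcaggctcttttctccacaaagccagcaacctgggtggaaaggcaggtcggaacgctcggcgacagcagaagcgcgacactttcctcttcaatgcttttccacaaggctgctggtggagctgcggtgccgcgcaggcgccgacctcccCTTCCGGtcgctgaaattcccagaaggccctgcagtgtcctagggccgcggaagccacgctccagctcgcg
Gtf3a (chr5:146948407-146948706, + strand): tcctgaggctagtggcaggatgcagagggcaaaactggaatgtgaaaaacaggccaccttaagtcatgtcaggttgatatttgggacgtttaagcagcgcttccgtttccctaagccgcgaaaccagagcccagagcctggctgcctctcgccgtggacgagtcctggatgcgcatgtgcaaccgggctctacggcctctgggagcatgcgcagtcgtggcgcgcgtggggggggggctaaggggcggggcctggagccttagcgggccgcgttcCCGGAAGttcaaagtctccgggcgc

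With the start site as 0, the core began at -42 in Polr1c, -21 in Gtf3c2, 1 in Taf1b and 25 in both Polr1e and Gtf3a. Rrn3 held it at -5 and 18, and E-boxes at -215 and -48. In Gtf3c1, the remaining upregulated gene with a core, it began at -223. The E-box, recognised by MYC and USF factors, lay in 6 of the 30 promoters (20%), beside 10.5% of tested genes. The GC box GGGCGG was found in 15 promoters (50%, beside 65.4%) and CCAAT in 9 (30%, beside 39.2%). TATAAA was found in 1, that of Gtf3c6 (3.33%, beside 6.32%). Sites of different motifs can share bases, as the ETS core at -5 and the GC box at 1 do in Rrn3. The median GC content of the promoters was 57.5%, beside 61% for tested genes. No binding was measured in these embryos, so the matches are a description of the letters alone.

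**Figure D2:**
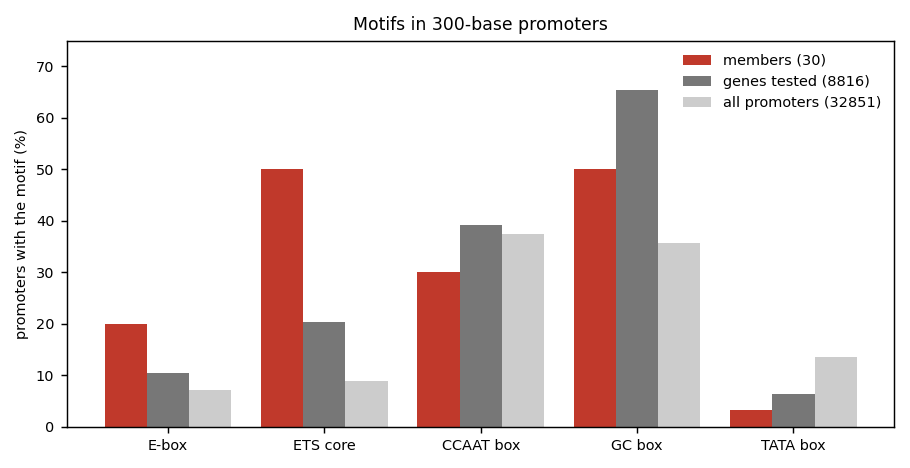
Share of promoters (%, bars from 0) that hold each motif on either strand, for the 30 matched Pol I and Pol III genes, the 8816 matched tested genes and all 32851 promoters. The ETS core stood at 50% in the list beside 20.3% of tested genes, while the GC box stood lower in the list (50%) than in tested genes (65.4%).

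Of the subunits that only Pol I holds, 1 of 6 was upregulated (16.7%, beside 4.37% of all genes tested), a share that rests on 1 gene. Polr1e (chr4:45018583-45036565) encodes PAF53, which with the product of Cd3eap forms a dimer on the enzyme's flank. In controls it measured 78.5, 98.9 and 179.8 CPM (lowest, median, highest), and in Ehmt2Mat 138, 208 and 256 CPM. The groups overlapped, yet 7 of 10 Ehmt2Mat embryos exceeded every control and 8 of 9 controls lay below every Ehmt2Mat embryo. The mean was 109.5 CPM (SD 32.6, n = 9) in controls, beside 195 CPM (SD 38.8, n = 10) in Ehmt2Mat. The log2 fold change was 0.83 (SE 0.18, adjusted p = 0.00517). Its partner Cd3eap had 0.41 (SE 0.47, adjusted p = 0.666), with Ehmt2Mat embryos spread from 1.64 to 58.3 CPM around the control range of 5.97 to 37.1 CPM.

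The catalytic subunits did not pass the threshold. Polr1a had a log2 fold change of 0.43 (adjusted p = 0.226) and Polr1b one of 0.12 (95% CI -0.23 to 0.47). Znrd1, a small subunit that acts in transcript cleavage, had 0.51 (adjusted p = 0.169), and its 9 controls were widely spread (57.5 to 302 CPM) around an Ehmt2Mat range of 167 to 299 CPM. Twistnb, whose product lies in the stalk where RRN3 docks, had the only negative value among these subunits, -0.54 (adjusted p = 0.4). In Ehmt2Mat it measured 7.56, 43.5 and 113 CPM, with 3 embryos below every control (24.4, 76.9 and 118 CPM).

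Both listed subunits that Pol I and Pol III share were upregulated, beside 4.37% of all genes tested, a share that rests on 2 genes. Of the shared subunits outside the list, Polr2h was called, while Polr2e, Polr2f, Polr2k and Polr2l were not. Polr1c (chr17:46243920-46248054) and Polr1d (chr5:147077050-147111597) encode the pair on which either enzyme is assembled. Polr1c measured 185, 299.6 and 565 CPM in controls and 318, 625 and 1272 CPM in Ehmt2Mat, and its log2 fold change was 0.88 (SE 0.24, adjusted p = 0.022). Polr1d measured 186, 387 and 506 CPM in controls and 443, 560.1 and 788 CPM in Ehmt2Mat, with 0.78 (SE 0.20, adjusted p = 0.0171). In either gene, 7 of 10 Ehmt2Mat embryos exceeded every control. The 4 lowest controls of Polr1d were all +/+, and the other 5 lay at or above the control median. Of Polr1d's exonic 50-base stretches, 10.8% also occur in another gene model, Gm12751, and for Polr1c 0% do.

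SL1 consists of the TATA-binding protein and the products of Taf1a, Taf1b, Taf1c and Taf1d. Taf1b (chr12:24498581-24558571) had a mean of 54.0 CPM (SD 21.8, n = 9) in controls, beside 101 CPM (SD 25.4, n = 10) in Ehmt2Mat. Its embryos measured 19.2, 54.3 and 97.3 CPM in controls and 63.3, 100.2 and 142 CPM in Ehmt2Mat, with 6 of 10 above every control, and the log2 fold change was 0.90 (SE 0.24, adjusted p = 0.0193). Taf1d (chr9:15306214-15312104) had the largest positive value of the list in this fit, 0.90 (SE 0.22, adjusted p = 0.0109), from 54.0, 120.0 and 178 CPM in controls to 144, 228 and 339 CPM in Ehmt2Mat. Exons of Taf1d overlap the antisense gene 4931406C07Rik, and reads of the strands were not separated, although the median count of that gene was 269 beside 3212 for Taf1d. Of Taf1d's exonic 50-base stretches, 11.9% also occur in other gene models, at most 2.5% in a single one (Gm13487). For Taf1b, 6.46% occur in Gm19196. Taf1a had 0.65 (SE 0.23, adjusted p = 0.069) and passed only without control 2 among the fits that left out 1 embryo (adjusted p = 0.0449). Taf1c had 0.42 (SE 0.30, adjusted p = 0.432).

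RRN3 is the initiation factor whose binding makes Pol I competent to start. Rrn3 (chr16:13780699-13814840) measured 169.8, 235 and 368 CPM in controls and 265, 443 and 631 CPM in Ehmt2Mat. Only 2 of 10 Ehmt2Mat embryos lay within the control range, and the log2 fold change was 0.83 (SE 0.18, adjusted p = 0.00514). No exonic stretch of 50 bases in Rrn3 occurs in another gene. Tcof1 (treacle), which ties UBF to ribosomal RNA processing, rose from 51.2, 92.9 and 124 CPM to 94.5, 129 and 204 CPM, with 5 of 10 Ehmt2Mat embryos above every control and a log2 fold change of 0.65 (SE 0.20, adjusted p = 0.0408). Tcof1 was nearest to the threshold of the called genes and lost its call in 12 of 19 fits that left out 1 embryo (controls 1, 2, 3, 5, 6, 7 and 8 and Ehmt2Mat embryos 2, 3, 4, 7 and 9), where its adjusted p reached 0.0804.

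Ubtf, the most abundant gene of the list in CPM, had a mean of 840.0 CPM (SD 169.8, n = 9) in controls, beside 812 CPM (SD 261, n = 10) in Ehmt2Mat. Its log2 fold change was -0.05 with a 95% CI of -0.41 to 0.31, an interval that leaves out the values of the 10 upregulated genes. Its sign turned when the slope on exon length was removed (0.02). Ttf1, which ends ribosomal transcripts and remodels their chromatin, had 0.74 (SE 0.34, adjusted p = 0.185). In Ttf1 8 of 10 Ehmt2Mat embryos exceeded every control, but Ehmt2Mat embryo 7 (18.1 CPM) lay far below the rest of its group, and the controls ranged from 2.92 to 38.6 CPM.

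**Figure D3:**
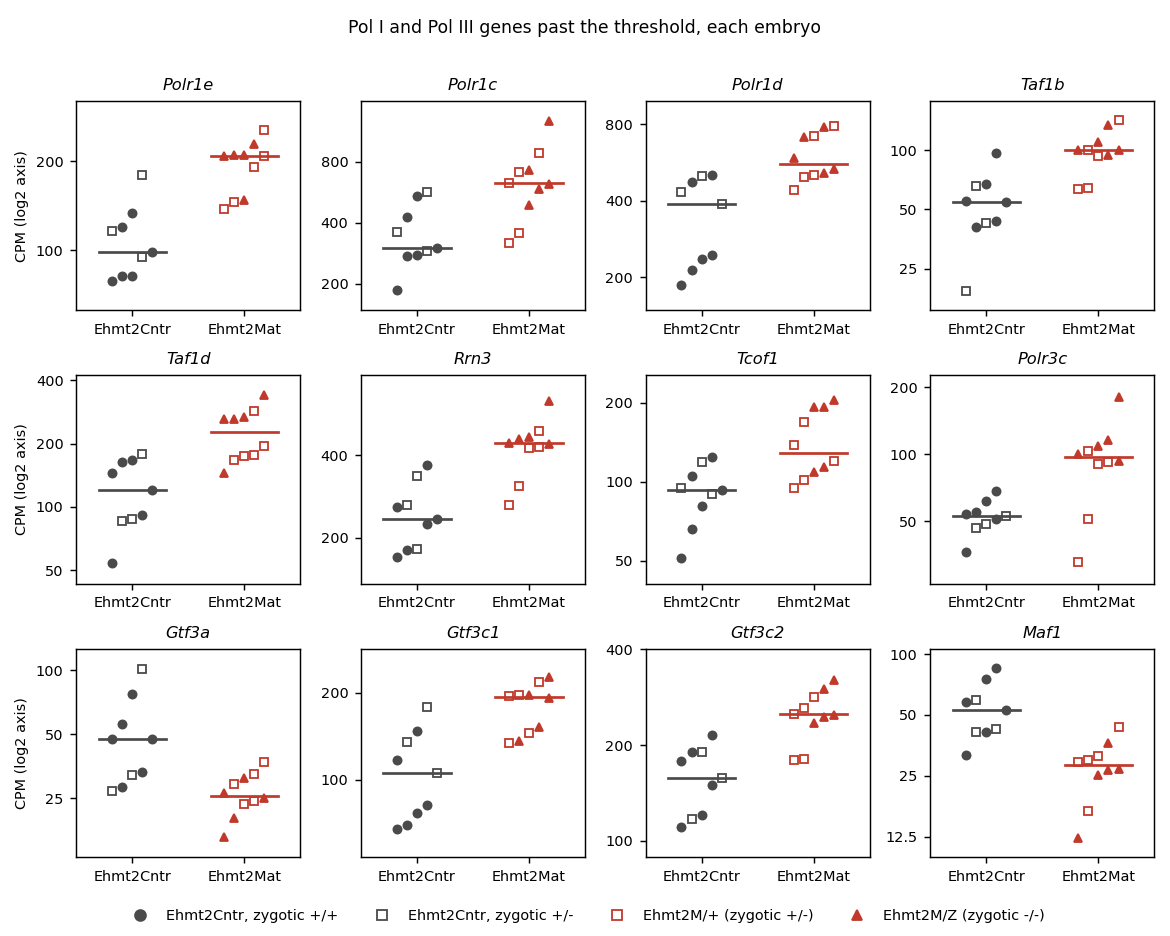
CPM of each embryo (vertical, log2 axis) for the 12 genes past the threshold, controls in grey and Ehmt2Mat in red, with a line at each group's median. Circles are +/+, open squares +/- and triangles -/- zygotic genotypes. In all 12 genes the groups overlapped, for example in Rrn3, where the 2 lowest Ehmt2Mat embryos lay below the highest control of 368 CPM.

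Of the subunits held by Pol III alone, 1 of 9 passed (11.1%), which is near the 9.35% of all genes tested. Polr3c (chr3:96711490-96727628) belongs with Polr3f and Polr3g to the subcomplex that opens the promoter and contacts TFIIIB. It measured 36.2, 52.7 and 68.5 CPM in controls and 32.8, 96.8 and 181 CPM in Ehmt2Mat. Thus 8 of 10 Ehmt2Mat embryos lay above every control, whereas embryo 3 lay below all of them, and the log2 fold change was 0.88 (SE 0.24, adjusted p = 0.0199). Polr3f had 0.84 (SE 0.27, adjusted p = 0.0509) and stood just outside the threshold, with values of 20.4, 30.1 and 88.3 CPM in controls and 35.8, 66.8 and 102 CPM in Ehmt2Mat. DESeq2 called Polr3f (adjusted p = 0.0195), as did the edgeR fits without control 9, without control 10 and without Ehmt2Mat embryo 8 (adjusted p down to 0.0073).

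Polr3g and Polr3gl encode alternative forms of the third subunit of this subcomplex, of which Polr3g is known as the form of pluripotent and early embryonic cells. Polr3g measured 277, 332 and 398 CPM in controls and 227, 279.8 and 389 CPM in Ehmt2Mat, with a log2 fold change of -0.22 (95% CI -0.49 to 0.04, adjusted p = 0.334). Polr3gl had between 0 and 77 counts per embryo, with 0 counts in 3 controls and 3 Ehmt2Mat embryos and at most 3.48 CPM elsewhere. Per exon length, the mean level was 85.3 RPKM (CPM divided by exon length in kilobases) for Polr3g and 0.539 RPKM for Polr3gl in controls, and 73.1 and 0.762 RPKM in Ehmt2Mat. The log2 ratio of their counts averaged 10.0 (SD 2.49, n = 9) in controls, beside 9.14 (SD 2.46, n = 10) in Ehmt2Mat, a difference of -0.88 that was within the spread of embryos (p = 0.441 in an exact two-sided permutation test with 92378 splits, adjusted p = 0.855 for the 2 ratios). A difference in this ratio was not detectable at this depth.

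Polr3k, the small subunit for cleavage and termination, had a log2 fold change of 0.77 (SE 0.30, adjusted p = 0.113), and 7 of 10 Ehmt2Mat embryos exceeded every control. Control 7 stood apart in Polr3k, at 7.39 CPM beside a next value of 50.6 CPM. The large catalytic subunits Polr3a and Polr3b had 0.12 (95% CI -0.30 to 0.55) and 0.13 (95% CI -0.36 to 0.62). Polr3d and Polr3e, which form the dimer used in initiation and termination, had 0.28 (95% CI -0.11 to 0.67) and -0.06 (95% CI -0.56 to 0.43). The large subunits of Pol I and Pol III were therefore not called, while the shared pair Polr1c and Polr1d were. A test of the difference between these genes was not made.

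In TFIIIB, 0 of 3 genes passed, beside 9.35% of all genes tested, and no fold change was positive in this fit. A list of 3 is too short to tell 0 calls from that share. Brf1, used at tRNA and 5S genes, had the smallest adjusted p of the group and measured 2.71, 17.9 and 52.3 CPM in controls and 8.29, 13.4 and 34.2 CPM in Ehmt2Mat. The ranges nested and the log2 fold change was -0.44 (SE 0.41, adjusted p = 0.587). Brf2, used at U6-type promoters, had -0.07 (95% CI -0.74 to 0.59). Bdp1, a further TFIIIB component, had -0.16 (95% CI -0.96 to 0.65), and its sign turned with the zygotic copies as covariate (0.39). Leaving out 1 embryo turned the sign of Brf2 in 3 fits and that of Bdp1 in 2. The 95% CI of Brf1 reached up to 0.37. The log2 ratio of Brf1 to Brf2 averaged -0.61 (SD 1.38, n = 9) in controls, beside -0.72 (SD 1.15, n = 10) in Ehmt2Mat (difference -0.11, exact two-sided permutation test, p = 0.855, adjusted p = 0.855).

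TFIIIC binds the internal promoters of tRNA genes, and 2 of its 6 listed subunits were upregulated, beside 4.37% of all genes tested. Gtf3c1 (chr7:125640955-125707780), its largest subunit, measured 67.4, 106 and 178 CPM in controls and 134, 193 and 227 CPM in Ehmt2Mat. The log2 fold change was 0.72 (SE 0.20, adjusted p = 0.0219), and 6 of 10 Ehmt2Mat embryos exceeded every control. Gtf3c2 (chr5:31156005-31180144) measured 111, 158 and 215 CPM in controls and 179.8, 249.5 and 321 CPM in Ehmt2Mat, with 8 of 10 above every control and a log2 fold change of 0.66 (SE 0.16, adjusted p = 0.0129). Of its exonic stretches of 50 bases, 37.1% are shared with the overlapping gene model Gm29609 on the same strand, which itself had a log2 fold change of 0.91 (adjusted p = 0.0261), so that reads of these genes cannot be told apart in part. Gtf3c3, Gtf3c4, Gtf3c5 and Gtf3c6 had positive values of 0.21 to 0.36 and did not pass.

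Gtf3a and Maf1 were the downregulated genes. Gtf3a (chr5:146948657-146955614) encodes TFIIIA, which recognises 5S genes and binds 5S RNA. It measured 27.1, 47.2 and 101 CPM in controls and 16.4, 25.7 and 36.9 CPM in Ehmt2Mat, with 6 of 10 Ehmt2Mat embryos below every control and a log2 fold change of -0.91 (SE 0.27, adjusted p = 0.0307). Mtif3, transcribed from the opposite strand, shares 50.9% of the exonic stretches of Gtf3a, and Mtif3 had a log2 fold change of -0.57 (SE 0.28, adjusted p = 0.218). Because reads in an overlap went to each gene there and strand was not used, the fall of Gtf3a cannot be told apart from one of Mtif3. Its call was lost without control 3, control 7, Ehmt2Mat embryo 7 or Ehmt2Mat embryo 9, where its adjusted p reached 0.0783.

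Maf1 (chr15:76351294-76354380), the repressor that keeps Pol III from TFIIIB when growth signals are low, shares no stretch with another gene. It measured 31.6, 52.7 and 85.2 CPM in controls and 12.3, 28.1 and 43.6 CPM in Ehmt2Mat. All but 2 of the 10 Ehmt2Mat embryos lay below every control, and every Ehmt2Mat embryo lay below the control median. The mean was 54.1 CPM (SD 17.4) over the 9 controls, beside 27.8 CPM (SD 8.89) over the 10 Ehmt2Mat embryos, with a log2 fold change of -0.96 (SE 0.25, adjusted p = 0.0163), and the call held in all 19 fits that left out 1 embryo.

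**Figure D4:**
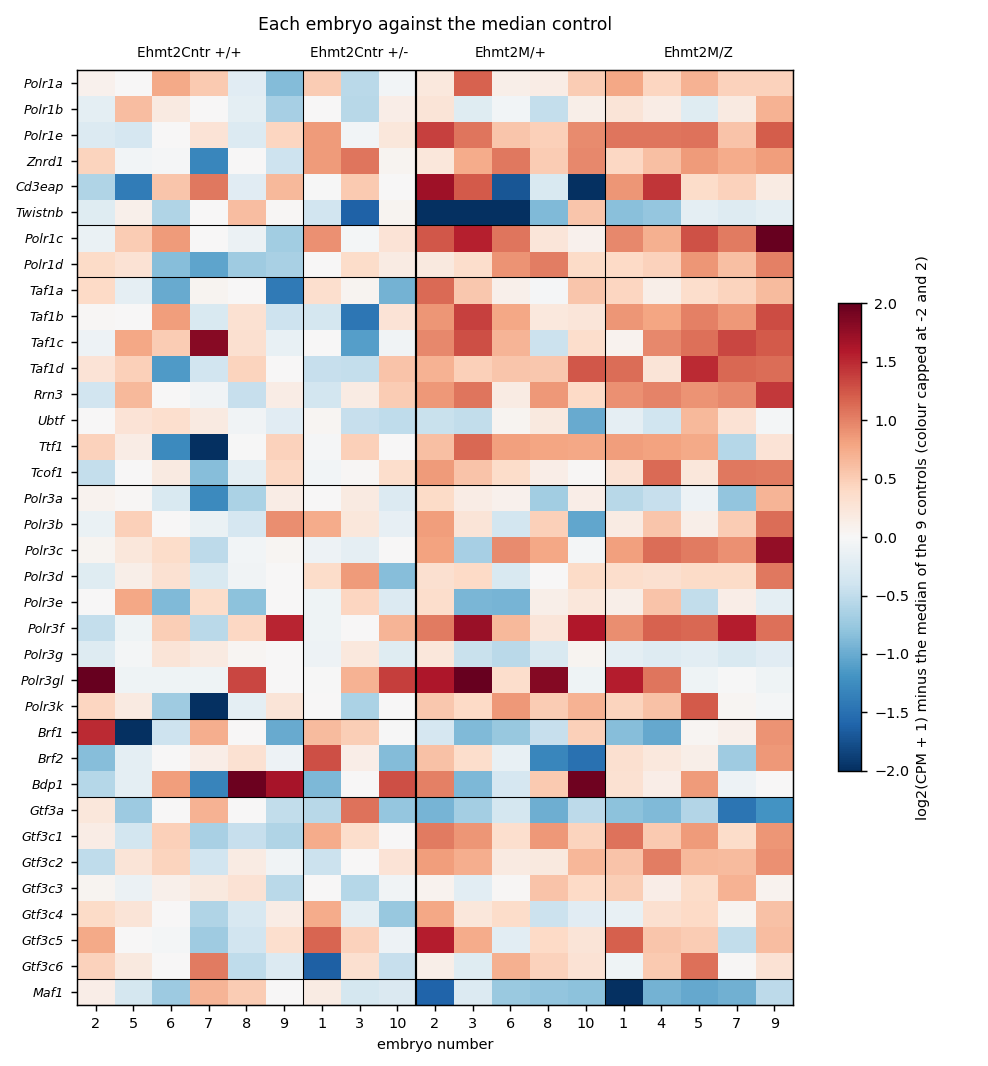
Each embryo's log2(CPM + 1) minus the median of the 9 controls (colour, red higher and blue lower, capped at -2 and 2) for the 36 genes (rows, by role) and the 19 embryos (columns, by maternal and zygotic genotype). The upregulated genes are red across most Ehmt2M/+ and Ehmt2M/Z columns and Maf1 and Gtf3a are blue, while Cd3eap, Twistnb, Polr3gl, Brf1 and Bdp1 vary between embryos of the same genotype.

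Counted by embryo, the 10 upregulated genes exceeded their control medians in 9 or 10 cases in each Ehmt2Mat embryo and in 1 to 8 cases in the controls, of which control 10 had 8. Ehmt2Mat embryo 9 exceeded every control in all 10 genes, and embryos 6 and 10 in 3. Since these genes were picked by this contrast, the counts describe how evenly the embryos took part and are no further test.

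To ask whether the difference remains at a matched zygotic genotype, the 3 control and 5 Ehmt2Mat embryos with the genotype +/- were compared. Here 0 of 36 genes passed (edgeR, smallest adjusted p = 0.683), of 13401 genes tested only 1 did (0.00746%), and DESeq2 called 0 of the 36 as well, though it called 205 of 18342 genes (1.12%). The direction was positive for 26 genes and negative for 10, and the median log2 fold change was 0.34 beside 0.03 over all genes. Of the 36, 3 genes had an unadjusted p under 0.05, all higher, beside 906 of all 13401 genes (6.76%) in either direction. The SE of Polr1e was 0.33 in these 8 embryos, beside 0.18 in the full comparison. Rrn3 averaged 260.3 CPM (SD 76.5, n = 3) in +/- controls, beside 385 CPM (SD 94.4, n = 5) in Ehmt2M/+, and Maf1 47.8 CPM (SD 10.0) beside 30.2 CPM (SD 9.54). These embryos are part of the full comparison and are not independent of it.

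Within Ehmt2Mat, the Ehmt2M/Z and Ehmt2M/+ embryos (5 each) were set against each other to ask whether a zygotic copy alters the levels. No gene of the 36 was called by edgeR or DESeq2, and edgeR called 0 of 12195 genes (0%, with 270 at an unadjusted p under 0.05, none of them among the 36), while DESeq2 called 15 of 19059 (0.0787%). The log2 fold change was positive for 25 of the 36, with a median of 0.16 beside -0.04. Rrn3 averaged 489 CPM (SD 80.0) over the 5 Ehmt2M/Z and 385 CPM (SD 94.4) over the 5 Ehmt2M/+ embryos, and Polr3c 119.8 CPM (SD 35.3) and 74.0 CPM (SD 30.2). Between controls with the zygotic genotypes +/- (3) and +/+ (6), edgeR called 0 of the 36 genes and 0 of 12646 genes (0%, with 572 at an unadjusted p under 0.05, 2 of them among the 36), DESeq2 called 0 of the 36 and 103 of 16483 genes (0.625%), and the median was 0.03. A difference of the zygotic step between the maternal groups was called in 0 of the 36 genes and 0 of 15224 genes in all (0%, interaction in edgeR). The smallest adjusted p in the list was 0.505, and 3 of its genes had an unadjusted p under 0.05, a count not made over all genes.

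Other genes of the pathway were read from lists of related factors. Of 17 further Pol I and Pol III genes, with a median log2 fold change of 0.33, 0 were downregulated. Upregulated were 3 (17.6%, beside 4.37% of all genes tested). They were Polr2h, a subunit common to the nuclear polymerases (0.77, adjusted p = 0.0261), Snapc5 of the complex that recruits polymerases to snRNA genes (1.10, adjusted p = 0.0188), and Taf12, a TFIID subunit also described in SL1 (1.18, adjusted p = 0.00198). In Taf12 every Ehmt2Mat embryo (84.0, 117 and 185 CPM) exceeded every control (26.6, 51.4 and 82.0 CPM), which 0.34% of tested genes did and 0 of the 36 did. Of 9 rDNA chromatin and nucleolar factors, 4 were upregulated (44.4%, beside 4.37% of all genes tested). These were the nucleolar phosphoprotein Nolc1 (1.57, adjusted p = 0.000178), nucleolin Ncl (0.87, adjusted p = 0.00491), Rrp8 (0.70, adjusted p = 0.0409) and the helicase Ddx21 (0.52, adjusted p = 0.0424). Of 8 subunits of Pol II alone, edgeR called 0, beside 9.35% of all genes tested, and their median was -0.24. A list of 8 is too short to tell 0 calls from that share. At an unadjusted p under 0.05, 1 was higher, Polr2d (0.50, adjusted p = 0.0538), and 1 lower, Polr2m (-0.56, adjusted p = 0.181). Of all 11754 genes tested, 1287 were higher and 1447 lower at that p.

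**Figure D5:**
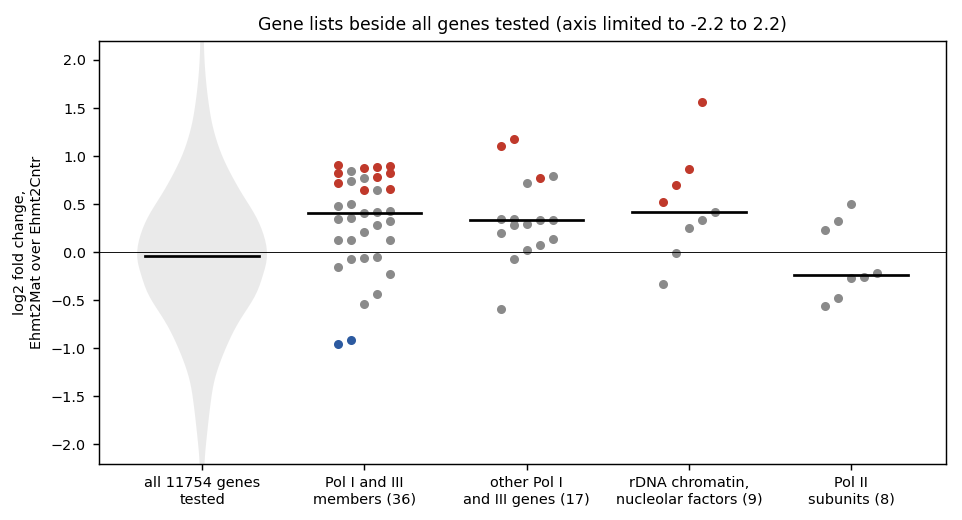
Log2 fold change (vertical axis, Ehmt2Mat over Ehmt2Cntr) of single genes (points, red higher and blue lower past the threshold, grey not past) in the lists, beside the distribution over all 11754 genes tested (grey shape), with a line at each median. The medians were 0.41 for the 36 Pol I and Pol III genes, 0.33 for the further genes, 0.41 for nucleolar factors and -0.24 for Pol II subunits.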

How the data were processed

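RNA of 19 single 8C embryos was analysed. The deposited tables hold raw counts of reads over the exons of each Ensembl gene, not normalized. The file headers record featureCounts 1.5.0 with the Ensembl release 82 annotation of GRCm38, a minimum overlap of 10 bases, reads counted for every gene they overlap, multi-mapping reads kept and no strand. The submitters' processing notes also name TopHat2 and DESeq2.

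From these counts, edgeR 4.0.16 in R 4.3.3 was run with its low-count filter, TMM factors and quasi-likelihood testing. p-values were adjusted by Benjamini-Hochberg over all genes tested, with a threshold of 0.05. CPM use TMM-scaled totals, and SE is the absolute log2 fold change over the square root of F. Ratios of gene pairs (1 count added) were compared by exact two-sided permutation tests. p-values measure the spread between embryos, which may share litters. The main fit used no block, since the study's methods name no covariate. In a separate check, same-numbered embryos did not deviate together (correlations -0.156 to 0.0856).

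All 36 genes are accounted for. Values per embryo are given for those past the threshold and, where a role has none, for the one with the smallest adjusted p. Single genes outside this rule (Cd3eap, Znrd1, Twistnb, Polr3d, Polr3f, Polr3g, Polr3gl, Ubtf, Ttf1, Polr3k) were singled out after their values were seen. The genes and lists were chosen with earlier results of these data known. Exonic stretches of 50 bases were compared among GENCODE transcripts of the same build. Alternatives were RLE and upper-quartile factors, DESeq2 1.42.0, other filters, the embryo number as a block, zygotic copies as a covariate, thinning to 8231646 counts, removal of the slope on exon length and leaving out each embryo. Scripts were tested on simulated data. Coverage falls off from the 3′ end, so RPKM of long genes may be understated.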

Additional observations from a re-analysis of the deposited data

Results flagged for a closer look

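In 3 of 76 groups of values tested (36 genes and 2 ratios in each maternal group), an embryo lay farther from its group than Dixon's 95% limit allows. The limit was applied to log2(CPM + 1) for genes and to the log2 ratios, whereas the values below are in CPM. Chance flags about 1 in 20 such groups. Ttf1 in Ehmt2Mat embryo 7 measured 18.1 CPM, below a next value of 33.4 CPM. Polr3d in Ehmt2Mat embryo 9 measured 257 CPM, above a next value of 164 CPM. Polr3k in control 7 measured 7.39 CPM, below a next value of 50.6 CPM. None of these genes passed the threshold with all embryos or without the embryo in question: Ttf1 without Ehmt2Mat embryo 7 had a log2 fold change of 0.83, Polr3d without Ehmt2Mat embryo 9 had 0.18, and Polr3k without control 7 had 0.61.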

How the results depend on the processing

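The same 12 genes were called with RLE factors (12 calls, beside 9.44% of all genes) and with thinned counts (12 of 35, beside 10.7%). All 12 were kept with upper-quartile factors (13, beside 9.36%), DESeq2 (14) and the slope on exon length removed (13, beside 9.62%). They were also kept with at least 10 counts in every embryo (14 of 35, where 19.2% of all genes were called). No filter on low counts left 10, beside 5.67% of all genes, without Tcof1 and Gtf3a. Over all genes, DESeq2 called 2068 of 21185 tested (9.76%), beside 1099 of 11754 (9.35%). Leaving out 1 embryo gave 10 to 13 of the 36, 884 to 1262 genes in all and a median log2 fold change of 0.34 to 0.47. With zygotic copies as covariate, 0 of the 36 genes and 3 genes in all were called. Maternal group and zygotic copies are correlated by design, and the cause was not tested.

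The embryo number as a block left 4 of the 36 genes (Polr1e, Taf1d, Rrn3 and Gtf3c1) and 699 genes in all (5.95%). With the slope on exon length removed as well, 5 and 681 (5.79%) were left. Neither Gtf3a nor Maf1 was called in these 2 fits. Ehmt2Mat embryo 4 has no same-numbered control and does not enter the contrast there. The sources used here do not say what a number shared by a control and an Ehmt2Mat embryo means. Of the 9 same-numbered pairs, 0 correlated above 0.1, and 0 controls correlated best with their own number. The cause of the lost calls was not tested. The block changed no count of 0 among +/- embryos, an alternative added after seeing the data, as was a joint fit of 4 genotype groups, which also gave 0.

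The following signs turned. With the block, Cd3eap was -0.043 and Bdp1 0.081, and the log2 ratio of Brf1 to Brf2 differed by 0.021. With the slope removed, Ubtf was 0.018, and with block and slope together Cd3eap was -0.12, Ubtf 0.0028 and Bdp1 0.19. With zygotic copies, Polr1b was -0.017, Polr3b -0.19, Polr3d -0.10 and Bdp1 0.39. Without 1 embryo, Bdp1 ranged from -0.46 to 0.12, Brf2 from -0.20 to 0.17, Polr3e from -0.15 to 0.065, Ubtf from -0.15 to 0.030, the ratio of Brf1 to Brf2 from -0.41 to 0.21 and, with no change of sign, that of Polr3g to Polr3gl from -1.34 to -0.50. The within-group comparisons gave 0 of the 36 in every fit without 1 embryo. Depth limits Polr3gl, which had 6 counts in the median embryo.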
